A study of Mus musculus with 14 samples.

Results

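The 10 genes of arginine, ornithine and proline metabolism described here were measured across 14 mouse lung tumours: Ass1, Asl, Arg1, Arg2, Slc7a1, Slc7a2, Gatm, Oat, Aldh18a1 and Pycr1. They were chosen by symbol, each matched 1 Ensembl identifier, and they are 10 of the 46517 gene rows in the deposited table. All 10 passed the filter of at least 1 FPKM (fragments scaled to transcript length and to library size) in at least 3 libraries, which left 15719 genes to be tested. The tumours are small cell lung cancer (SCLC), a neuroendocrine carcinoma, from a pair of engineered models. RPM tumours (n = 11) arose in Rb1 fl/fl, Trp53 fl/fl mice that carry the Cre-activated allele LSL-Myc T58A, with 2 copies of it (LSL/LSL) in 9 tumours and 1 copy (LSL/+) in RPM replicates 2 and 4. RPR2 tumours (n = 3) arose in Rb1 fl/fl, Trp53 fl/fl mice whose Rbl2 alleles, which encode p130, are floxed as well. All groups therefore share the floxed Rb1 and Trp53 alleles, and none is normal lung. Cre came from an adenovirus whose Cgrp promoter directs it to neuroendocrine cells. The tumours were untreated and were dissected by eye, so they hold other cells too, and the labels used here give no age or sex.

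Arginine enters most cells through cationic amino acid transporters and can also be made from citrulline, by argininosuccinate synthase and then argininosuccinate lyase. Arginases split it into urea and ornithine, and ornithine aminotransferase connects ornithine with the intermediate from which proline is made. Proline can instead be built from glutamate. Tumours with little Ass1 are known to depend on arginine from outside the cell, and Arg1 is well known in mice as a gene of some macrophages as well as of liver.

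Promoter sequence from RefSeq (GRCm38.p6) was at hand for 6 of the 10 genes. The 250 bases before each annotated start were searched on both strands for the E-box CACGTG, the motif that Myc and Max are known to bind, and for TGATGNAA, a core of the amino acid response element known to be bound by Atf4. The searched motifs do not overlap each other in these windows. The E-box was found in the windows of Aldh18a1 and Ass1, and TGATGNAA in that of Pycr1, while the windows of Gatm, Oat and Slc7a1 (which has 2 annotated starts) held neither. Among all 32851 windows of the same length, 6.02% held the E-box and 3.45% held TGATGNAA. A match describes the letters only. The sequences below come from the windows that held a motif. They run 5′ to 3′ on the gene's strand, in lower case with the motif in capitals. Aldh18a1 is given at chr19:40588464-40588713 (minus strand, E-box beginning 59 bases before the start) and Pycr1 at chr11:120643770-120643998 (minus strand, motif beginning 103 bases before the RefSeq start). The last 21 bases of the Pycr1 window lie inside the gene by the GENCODE annotation and are not shown. For Ass1, 30 bases around the E-box are given at chr2:31470222-31470251 (plus strand, 36 bases before the RefSeq start). GENCODE places the first base of Ass1 further upstream than RefSeq does, so this E-box lies inside the gene by that annotation.
Aldh18a1: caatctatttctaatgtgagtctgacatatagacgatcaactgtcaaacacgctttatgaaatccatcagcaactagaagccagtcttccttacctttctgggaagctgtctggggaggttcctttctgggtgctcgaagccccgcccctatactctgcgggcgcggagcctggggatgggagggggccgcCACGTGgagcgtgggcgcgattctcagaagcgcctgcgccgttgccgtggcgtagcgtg
Pycr1: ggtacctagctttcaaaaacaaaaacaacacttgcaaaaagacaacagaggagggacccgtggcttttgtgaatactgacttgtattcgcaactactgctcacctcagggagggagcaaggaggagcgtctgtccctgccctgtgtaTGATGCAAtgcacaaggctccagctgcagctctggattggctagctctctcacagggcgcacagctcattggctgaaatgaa
Ass1: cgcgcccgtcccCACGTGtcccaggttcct

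The libraries were estimated, from the steps between the lowest FPKM values, to hold 17.4 to 19.8 M mapped reads in RPM and 21.3 to 22.9 M in RPR2 (M, mega). RPR2 replicate 3 stood apart from every other library. Its 9 neuroendocrine markers summed to 12.8 FPKM, against 231 to 1308 FPKM in RPM and 2431 and 3600 FPKM in RPR2 replicates 1 and 2, so the labelled tumour type is weakly marked there. Its 8 alveolar type 2 markers summed to 51360 FPKM and its 12 macrophage markers to 2537 FPKM. Most of that macrophage sum was Lyz2 (1469 FPKM), which alveolar type 2 cells are also known to express, and Chil3 (749.7 FPKM). In the same library Adgre1 (1.5 FPKM), C1qa (79.3 FPKM), C1qb (71.5 FPKM) and C1qc (51.3 FPKM) lay inside their RPM ranges. The other macrophage markers of the list lay above theirs. Among them were Cd68 (60.6 FPKM, at most 32.1 in RPM), Csf1r (16.2 FPKM, at most 11.3) and Itgax (17.0 FPKM, at most 9.11). The alveolar sum was 17.6 to 876 FPKM in RPM and 1243 and 1963 FPKM in RPR2 replicates 1 and 2, and the macrophage sum 267 to 823 FPKM in RPM and 947 and 688 FPKM in those RPR2 libraries. The calls on the 10 genes are therefore also given without this library. In such bulk samples, fewer cells of a type and less RNA per cell cannot be told apart. Over all libraries, 7 of 8 alveolar type 2, 3 of 4 club cell and 2 of 6 endothelial markers were lower in RPM, and 4 of 7 fibroblast markers were higher and 1 lower. Of the neuroendocrine markers Uchl1 was higher and Calca lower in RPM (limma, Benjamini-Hochberg adjusted p under 0.05). Among all genes tested, 18.4% were called higher and 22.8% lower in RPM. Of 8 neutrophil markers, Ly6g, Ngp and Camp stayed below 0.5 FPKM everywhere, and their sum was 1.3 to 35.4 FPKM in RPM and 6.35 to 23.0 FPKM in RPR2. Of 8 T and NK cell markers, Cd8a and Ncr1 did so, and their sum was 3.71 to 18.4 FPKM in RPM and 3.89 to 6.44 FPKM in RPR2. Of the 3 T and NK cell markers that could be tested, Cd4 (1.23 to 8.18 FPKM in RPM and 0.19 to 0.65 FPKM in RPR2) and Trac (1.73 to 6.35 FPKM in RPM and 0.9 to 1.04 FPKM in RPR2) were called higher in RPM. Cd3g, also tested, went the other way by -0.63 log2 units and was not called (limma, adjusted p = 0.205). The part of these cells in the results was not tested. The library codes in the description labels also differ between the models, and whatever they stand for and the genotype cannot be told apart.

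Relative to RPR2 tumours, RPM tumours had more RNA of Aldh18a1 and Pycr1, enzymes of proline synthesis from glutamate, and of the arginine transporter gene Slc7a1. They had less of Ass1, the first enzyme of arginine synthesis from citrulline, and of Arg1, the cytosolic arginase. The 3 higher genes differed by 1.52 to 1.56 log2 units, Ass1 by -1.84 and Arg1 by -3.29. The other 5 genes did not pass the threshold, although Asl, Slc7a2 and Gatm were called higher and Oat lower when libraries were weighted by their fit (limma array weights), a setting that called 27.3% of all genes higher and 41.8% lower (69.1% in either direction). Differences are limma estimates on log2(FPKM + 1), RPM minus RPR2, with Benjamini-Hochberg adjustment over all genes tested and a threshold of 0.05, and each SE rests on 11 and 3 libraries. In the background of all genes 18.4% were called higher and 22.8% lower in RPM, 41.2% in either direction, so the 5 of 10 called here are close to the share of all genes. Without RPR2 replicate 3 the counts were again 3 and 2, with Asl in place of Slc7a1 among those higher, beside 16.4% and 27.4% of all genes (43.9% in either direction). The groups then did not overlap for 5 of the 10 genes, 3 of them higher and 2 lower, beside 16.5% and 28.6% of all genes. With all 14 libraries the groups did not overlap for 1 of the 10 genes higher and 2 lower, beside 11.1% and 13.6% of all genes. The median difference of the 10 genes with all 14 libraries was 0.31, beside -0.06 for all genes tested. Without RPR2 replicate 3 these medians were 0.8 and -0.2. After scaling to TPM, where all libraries sum alike, the median of all genes was -0.23 and the calls became 1878 higher and 3588 lower, in place of 2897 and 3586. The 5 calls among the 10 genes kept their direction and stayed past the threshold after that scaling.

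**Figure D1:**
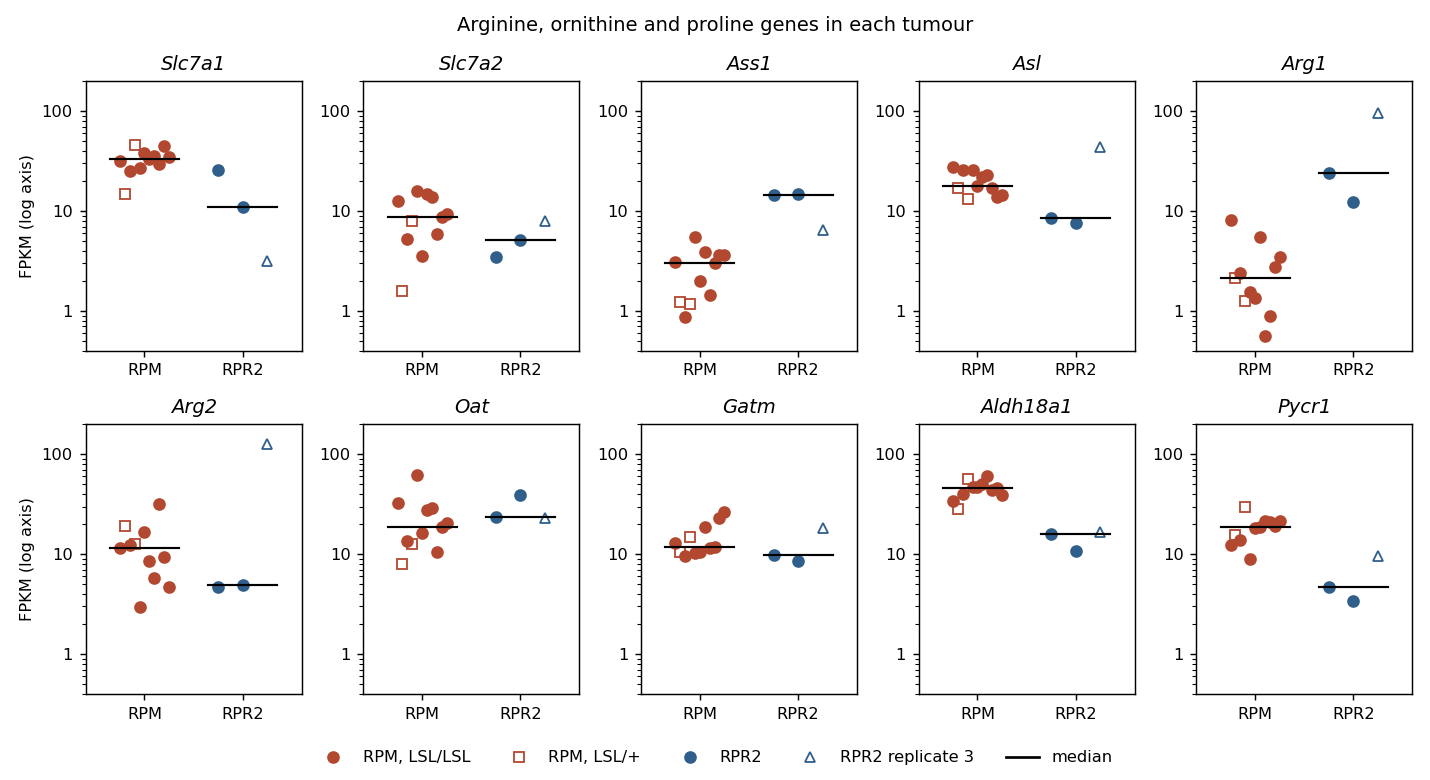
FPKM of each gene (log axis) in every tumour, RPM left of RPR2, with open squares for LSL/+ tumours, an open triangle for RPR2 replicate 3 and a bar at the group median. Aldh18a1 lay above all RPR2 tumours in every RPM tumour, Ass1 and Arg1 lay below all of them, and RPR2 replicate 3 was the highest library for Arg1, Arg2 and Asl.

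Slc7a1 (ENSMUSG00000041313, chromosome 5, 148327410 to 148399904, minus strand, GRCm38) encodes the widely expressed high-affinity transporter of arginine, lysine and ornithine. It ran from 14.9 to 46.0 FPKM in RPM with a median of 33.3, and stood at 25.8, 11.04 and 3.14 FPKM in RPR2. Most RPM tumours were above all RPR2 tumours, but the groups overlapped, because RPM replicate 2 (14.9 FPKM) and RPM replicate 3 (25.1 FPKM) lay below RPR2 replicate 1. Slc7a1 rose in RPM by 1.56 ± 0.41 log2 units (SE; limma, Benjamini-Hochberg adjusted p = 0.00658). The lowest value of any library was that of RPR2 replicate 3, and without it the difference was 0.86 ± 0.34 and no longer passed (limma, adjusted p = 0.0541). Without RPR2 replicate 1 it was 2.2.

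Slc7a2 (ENSMUSG00000031596, chromosome 8, 40862396 to 40922308, plus strand) encodes a related transporter known from liver and activated macrophages. It ran from 1.59 to 15.8 FPKM in RPM with a median of 8.73, against 3.50, 5.18 and 7.88 FPKM in RPR2. All 3 RPR2 values fell inside the wide RPM range, and the difference of 0.48 log2 units had a 95% confidence interval of -0.53 to 1.5 (limma, adjusted p = 0.442; 0.74 without RPR2 replicate 3, adjusted p = 0.305). Within each library Slc7a1 was the more abundant of the pair per unit length in all 11 RPM tumours, by 1.72 to 10.8 times. It was so in RPR2 replicates 1 and 2 too (log2 ratios 2.88 and 1.09), whereas RPR2 replicate 3 had more Slc7a2 (log2 ratio -1.33).

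Ass1 (ENSMUSG00000076441, chromosome 2, 31470207 to 31520672, plus strand) encodes argininosuccinate synthase, the rate-limiting step of arginine synthesis from citrulline. It was low in every RPM tumour, with 0.86 FPKM in the lowest, a median of 3.0 and 5.49 in the highest, against 14.6, 14.7 and 6.43 FPKM in RPR2. The groups did not overlap, which held for 13.6% of all genes in this direction. In RPM, Ass1 fell by 1.84 ± 0.37 on the log2 scale (SE; limma, Benjamini-Hochberg adjusted p = 0.00118; -2.19 ± 0.41 without RPR2 replicate 3, adjusted p = 0.000685). A near-identical copy, Gm5424 (99.5% identity over 1240 bases), was listed at 0 in all 14 libraries, so the table assigns it no reads. At the estimated depth the lowest RPM value corresponds to about 28 reads, taking the longest annotated transcript.

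Asl (ENSMUSG00000025533, chromosome 5, 130011258 to 130029247, minus strand) encodes argininosuccinate lyase, which follows Ass1. It ran from 13.2 to 27.9 FPKM in RPM with a median of 17.9, and stood at 8.57, 7.57 and 43.4 FPKM in RPR2. RPR2 replicates 1 and 2 lay below every RPM tumour and RPR2 replicate 3 above every one. With all libraries the difference was 0.39 ± 0.38 log2 units (SE; limma, adjusted p = 0.439), and without RPR2 replicate 3 it was 1.16 ± 0.26 and passed (limma, adjusted p = 0.0027). Without RPR2 replicate 2 it was -0.03 (adjusted p = 0.966, limma).

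The levels of these neighbouring enzymes stood in a different relation in RPM tumours than in RPR2 replicates 1 and 2, but not than in RPR2 replicate 3. Asl exceeded Ass1 in all 11 RPM tumours, with 3.88 times as much per unit length in the lowest, 8.93 times at the median and 29.8 times in the highest. In RPR2 replicates 1 and 2 Asl was below Ass1 (log2 ratios -0.76 and -0.96), and RPR2 replicate 3 (log2 ratio 2.76) lay inside the RPM range of 1.95 to 4.90. This ratio is taken within a library and does not depend on scaling between libraries. It is given as a description, without a test.

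Arg1 (ENSMUSG00000019987, chromosome 10, 24915221 to 24927484, minus strand) encodes the cytosolic arginase. It was the least abundant of the 10 genes in RPM by median, with 0.56 FPKM in the lowest tumour, a median of 2.13 and 8.15 in the highest. In RPR2 it stood at 24.1, 12.2 and 95.4 FPKM and had the highest median of the 10. All RPR2 tumours lay above all RPM tumours. In RPM, Arg1 fell by 3.29 ± 0.55 on the log2 scale (SE; limma, Benjamini-Hochberg adjusted p = 0.000264). RPR2 replicate 3 had the highest Arg1, and without it the difference was -2.49 ± 0.53 (limma, adjusted p = 0.00183), while without RPR2 replicate 2 it was -3.92. Of the 12 macrophage markers, all tested, none was called higher and 2 were called lower in RPM, beside 18.4% and 22.8% of all genes. Those were Lyz2, named above as known from alveolar type 2 cells too, and Chil3. Chil3, known from alveolar and alternatively activated macrophages, ranged from 0.16 to 21.3 FPKM in RPM and stood at 62.1, 26.2 and 749.7 FPKM in RPR2. Of the markers not called, Adgre1, C1qa, C1qb and C1qc differed by 0.07 to 0.48 log2 units. Cd68, Csf1r, Mrc1, Marco, Itgax and Fcgr1 differed by -0.69 to -0.1 (limma). The part of macrophages in the Arg1 result was not tested.

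Arg2 (ENSMUSG00000021125, chromosome 12, 79130777 to 79156301, plus strand) encodes the mitochondrial arginase. It ran from 2.99 to 31.7 FPKM in RPM with a median of 11.5, against 4.67, 4.91 and 127 FPKM in RPR2. Most RPM tumours lay above RPR2 replicates 1 and 2, and RPR2 replicate 3 lay far above them all. The difference was -0.52 ± 0.77 log2 units with all libraries (SE; limma, adjusted p = 0.624) and 0.97 ± 0.57 without RPR2 replicate 3 (limma, adjusted p = 0.184), so its sign turned on 1 library. Of the 1428 exonic bases of Arg2, 285 are shared with Vti1b on the opposite strand, and the strand setting of the counting is not given in the sources used here. Vti1b was at 37.9 to 62.6 FPKM over the 14 libraries.

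All 11 RPM tumours held more Arg2 than Arg1 per unit length, by 1.36 to 36.0 times with a median of 5.09. RPR2 replicates 1 and 2 held more Arg1 (log2 ratios of Arg2 to Arg1 of -2.37 and -1.32), and RPR2 replicate 3 was at 0.42, just under the lowest RPM tumour at 0.45. The groups therefore did not overlap in this ratio, though by a small margin, and it was not tested.

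**Figure D2:**
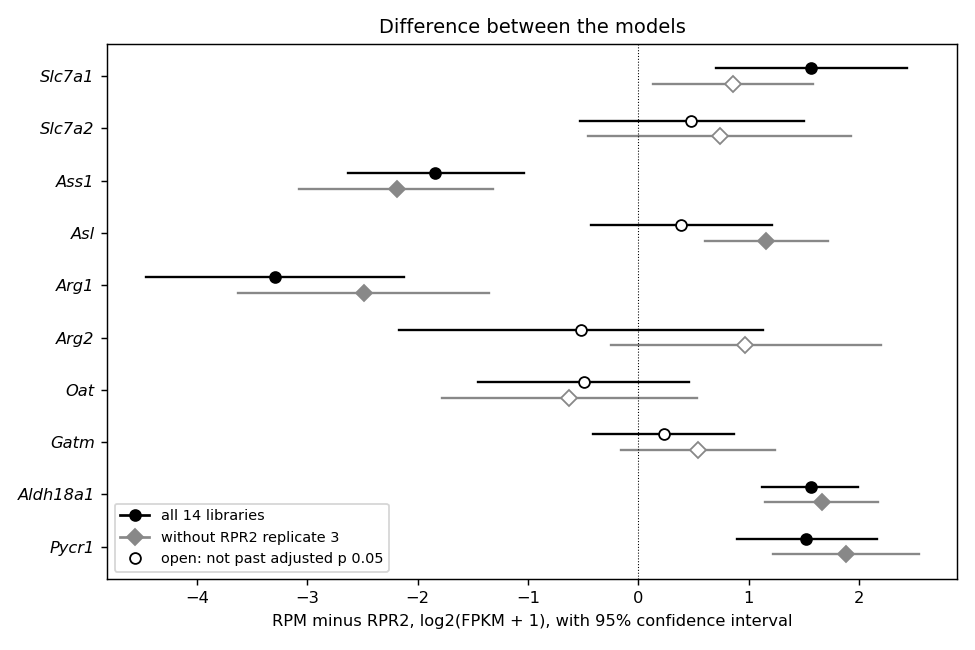
Log2 difference (RPM minus RPR2, horizontal axis) of each gene with its 95% confidence interval, from all 14 libraries (black circles) and without RPR2 replicate 3 (grey diamonds), open where the adjusted p was not under 0.05. Aldh18a1, Pycr1, Ass1 and Arg1 were called in both, Slc7a1 with all libraries only, and Asl only without RPR2 replicate 3.

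Oat (ENSMUSG00000030934, chromosome 7, 132557478 to 132576398, minus strand) encodes ornithine aminotransferase, which links ornithine to proline and glutamate. It ran from 7.99 to 62.0 FPKM in RPM with a median of 18.6, and stood at 23.7, 39.5 and 22.9 FPKM in RPR2. The RPR2 values lay within the RPM range, and the difference of -0.49 log2 units had a 95% confidence interval of -1.45 to 0.46 (limma, adjusted p = 0.405; -0.63 without RPR2 replicate 3, adjusted p = 0.363).

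Aldh18a1 (ENSMUSG00000025007, chromosome 19, 40550257 to 40588463, minus strand) encodes the mitochondrial enzyme that starts proline synthesis from glutamate. It had 28.3 FPKM in the lowest RPM tumour, a median of 45.9 and 61.2 in the highest, against 16.0, 10.9 and 16.7 FPKM in RPR2. Every RPM tumour lay above every RPR2 tumour, RPR2 replicate 3 included, and 11.1% of all genes showed this. Aldh18a1 rose in RPM by 1.56 ± 0.20 log2 units (SE; limma, Benjamini-Hochberg adjusted p = 3.44e-05), the smallest adjusted p of the 10 genes, and by 1.66 ± 0.24 without RPR2 replicate 3 (limma, adjusted p = 9.14e-05). It was the most abundant of the 10 in RPM by median, although the range of the next gene, Slc7a1, overlapped its own.

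Pycr1 (ENSMUSG00000025140, chromosome 11, 120635712 to 120643769, minus strand) encodes a mitochondrial reductase that completes proline synthesis. It ran from 9.05 to 29.7 FPKM in RPM with a median of 18.9, and stood at 4.71, 3.43 and 9.62 FPKM in RPR2. The only overlap was between RPM replicate 5 (9.05 FPKM) and RPR2 replicate 3. Pycr1 rose in RPM by 1.52 ± 0.30 log2 units (SE; limma, Benjamini-Hochberg adjusted p = 0.000936), and by 1.88 ± 0.31 without RPR2 replicate 3 (limma, adjusted p = 0.00027). Per unit length RPM tumours held 0.146 to 2.37 times as much Pycr1 as Oat, with a median of 1.03, and the RPR2 tumours 0.0868 to 0.420 times as much. RPM replicates 1 and 5 lay below the highest RPR2 value of this ratio.

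Gatm (ENSMUSG00000027199, chromosome 2, 122594467 to 122611303, minus strand) encodes the enzyme that uses arginine to begin creatine synthesis and releases ornithine. It ran from 9.60 to 26.7 FPKM in RPM with a median of 11.9, against 9.87, 8.58 and 18.4 FPKM in RPR2. The groups overlapped, and the difference of 0.23 log2 units had a 95% confidence interval of -0.41 to 0.87 (limma, adjusted p = 0.575; 0.54 without RPR2 replicate 3, adjusted p = 0.198). RPM replicates 10 and 11, whose titles share a number, had the highest Gatm of all libraries, at 23.3 and 26.7 FPKM.

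The order of the 10 genes by median level differed between the models as a description. In RPM it ran from Aldh18a1 through Slc7a1, Pycr1, Oat, Asl, Gatm, Arg2 and Slc7a2 to Ass1 and Arg1, and each gene's range overlapped that of the next. In RPR2 it ran from Arg1 through Oat, Aldh18a1, Ass1, Slc7a1, Gatm, Asl, Slc7a2 and Arg2 to Pycr1. Among RPR2 neighbours in that order only Oat and Aldh18a1 had ranges that did not overlap, with 3 libraries.

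**Figure D3:**
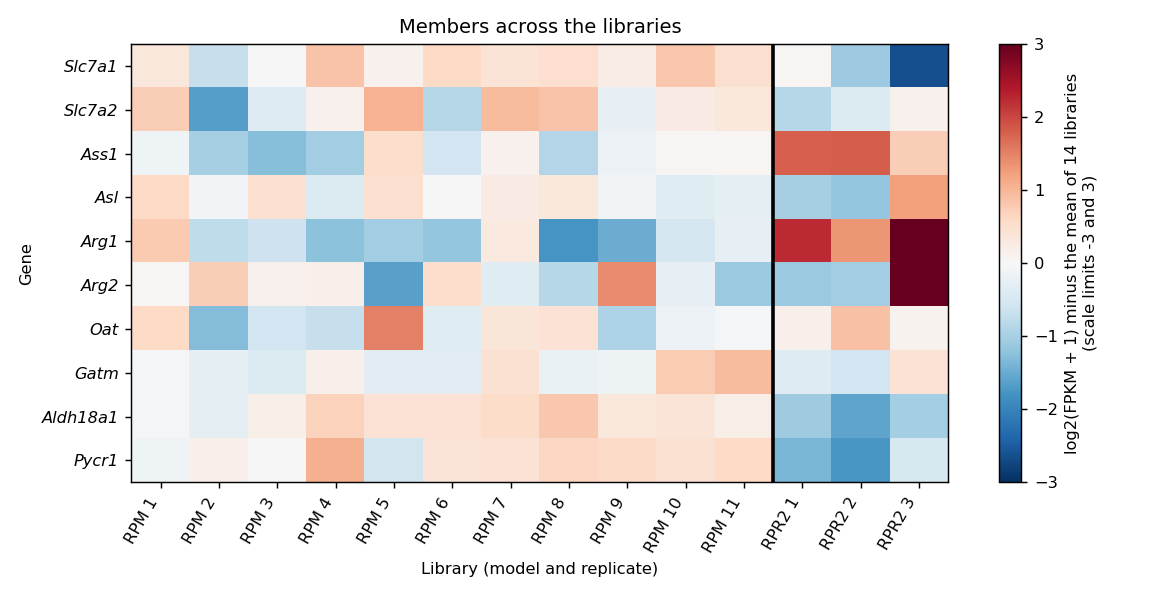
Each gene's log2(FPKM + 1) in each library (columns, RPM left of the black line and RPR2 right of it) minus its mean over the 14 libraries, in red where higher and blue where lower, with the colour scale limited to -3 and 3. RPR2 replicate 3 parts from the other RPR2 libraries in Asl, Arg2 and Slc7a1, and RPM replicate 5 shows high Oat with low Arg2.

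Of 43 further genes of the pathway in the table, 34 could be tested. In RPM 14 rose and 5 fell (limma, Benjamini-Hochberg adjusted p under 0.05), beside the 18.4% and 22.8% of all genes given above, and the median difference was 0.30. Without RPR2 replicate 3 the counts were again 14 and 5, of which 13 and 4 were shared. Slc7a3 and Ddah2 were then lost, and Pepd (higher) and Castor2 (lower) were gained. After TPM scaling 10 of these genes were called higher and 6 lower, beside 1878 and 3588 of all genes tested. Without RPR2 replicate 1, and likewise without RPR2 replicate 2, the counts were 12 and 5. Genes around glutamate, aspartate and proline were among those that rose. Got1 and Got2 encode the cytosolic and mitochondrial aspartate aminotransferases. Got1 averaged 68.7 ± 20.8 FPKM in RPM tumours (SD, n = 11), against 8.11, 13.46 and 10.03 FPKM in RPR2, a rise of 2.57 ± 0.24 log2 units (SE; limma, adjusted p = 1.93e-06), and Got2 rose by 1.12 ± 0.22 (limma, adjusted p = 0.000947). Pycr3 (listed as Pycrl), another reductase of proline synthesis, averaged 39.5 ± 5.73 FPKM in RPM tumours (SD, n = 11), against 19.5, 17.6 and 13.7 FPKM in RPR2, a rise of 1.17 ± 0.16 log2 units (SE; limma, adjusted p = 4.60e-05). On the side of proline breakdown, Prodh did not pass (0.44 log2 units, 95% confidence interval -0.81 to 1.70, limma). Aldh4a1, which completes that breakdown to glutamate, fell by 1.51 ± 0.42 on the log2 scale (SE; limma, adjusted p = 0.00999). It stood at 0.97 to 12.0 FPKM in RPM, with RPM replicate 5 highest, and at 9.01, 12.4 and 10.7 FPKM in RPR2. Without RPR2 replicate 2 the difference of Aldh4a1 was -1.41 (limma, adjusted p = 0.0503).

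Of the amino acid transporter genes, Slc7a5, which carries large neutral amino acids, averaged 73.1 ± 29.2 FPKM in RPM tumours (SD, n = 11), against 11.2, 10.8 and 8.29 FPKM in RPR2, a rise of 2.66 ± 0.29 log2 units (SE; limma, adjusted p = 6.26e-06). Slc7a6, which exchanges arginine for neutral amino acids, rose by 1.2 ± 0.17 log2 units (limma, adjusted p = 7.67e-05), and their shared heavy chain Slc3a2 by 0.71 ± 0.21 (limma, adjusted p = 0.015). Slc7a4, a relative of the cationic transporters, fell by 1.63 ± 0.24 (limma, adjusted p = 0.00011). It was low in both models, with at most 1.79 FPKM in RPM and 4.44, 5.93 and 4.41 FPKM in RPR2. Among genes that use arginine or ornithine, Prmt5, an arginine methyltransferase of proteins, rose by 1.44 ± 0.14 log2 units (limma, adjusted p = 2.21e-06). Odc1, ornithine decarboxylase, rose by 1.79 ± 0.21 (limma, adjusted p = 1.19e-05). The remaining genes that fell were Slc25a13, the aspartate-glutamate carrier (-1.17), P4ha2, a prolyl hydroxylase subunit of collagen (-1.07), and Ddah2, which degrades methylated arginine (-1.37, limma, adjusted p = 0.0299; -0.53 without RPR2 replicate 3, whose Ddah2 was 149 FPKM). Ddah1, of the same family, went the other way. It rose by 2.14 ± 0.51 log2 units (SE; limma, adjusted p = 0.00366; 1.92 without RPR2 replicate 3, adjusted p = 0.0189). Without RPR2 replicate 1, Slc25a13 (-1.09, adjusted p = 0.0532) and Slc3a2 (0.62, adjusted p = 0.0762) no longer passed (limma). The urea cycle genes Otc and Cps1 were too low to be tested. Cps1 had at most 0.06 FPKM in any library, and Otc reached 2.03 FPKM in RPR2 replicate 3 and at most 0.04 FPKM elsewhere.

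**Figure D4:**
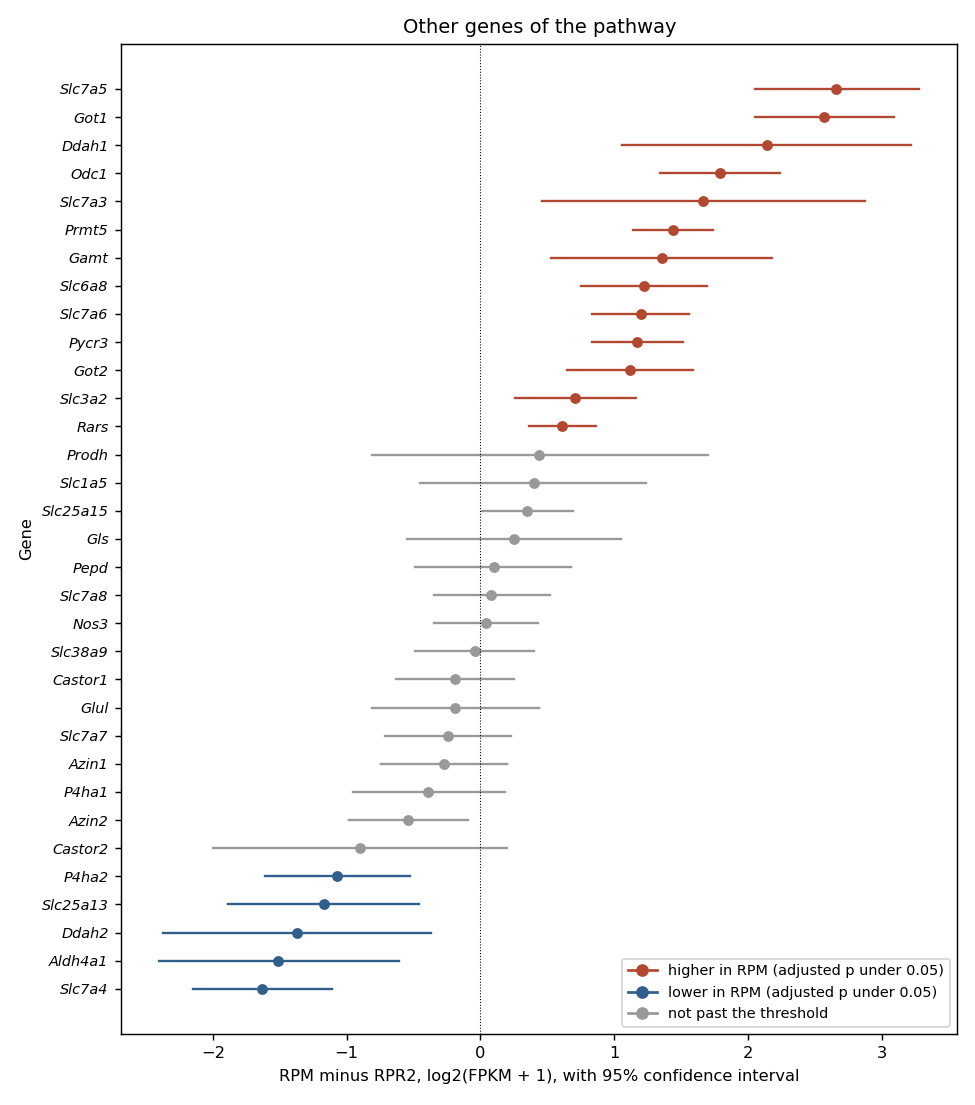
Log2 difference (RPM minus RPR2, horizontal axis) with 95% confidence interval for 33 of the 34 further pathway genes tested, in red where higher and blue where lower in RPM at an adjusted p under 0.05, and grey otherwise. Slc7a5 and Got1 had the highest differences of these genes, and Slc7a4 and Aldh4a1 the lowest.

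Atf4, the transcription factor of the amino acid response, and genes known as its targets moved both ways, with 4 of 15 higher and 4 lower in RPM (limma, Benjamini-Hochberg adjusted p under 0.05), beside 18.4% and 22.8% of all genes. Those higher were Atf4 itself (0.55 ± 0.17 log2 units), the serine synthesis gene Psat1 (2.34 ± 0.21), the asparagine synthetase gene Asns (1.35 ± 0.31) and Nars (1.06 ± 0.17). Those lower were Wars (-0.86), Sesn2 (-0.97), Nupr1 (-2.53) and Atf5 (-0.77). Without RPR2 replicate 3 the same 4 were higher and 3 were lower, Atf5 no longer passing, and without RPR2 replicate 1 only 2 were lower. Nupr1 stood at 4.45 to 65.8 FPKM in RPM and at 416, 339 and 41.8 FPKM in RPR2. Its difference was -3.57 without RPR2 replicate 3 and did not pass without RPR2 replicate 1 (-1.93, limma, adjusted p = 0.0746) or RPR2 replicate 2 (-2.08, limma, adjusted p = 0.0677). Atf4 differed by 0.57 without RPR2 replicate 2 (limma, adjusted p = 0.0501). Atf4 averaged 174 ± 32.9 FPKM in RPM tumours (SD, n = 11), against 119.07, 118.33 and 111.77 FPKM in RPR2, without overlap. Trib3 and Ddit3, also in the list, differed by -0.82 and -0.42 log2 units and did not pass (limma, adjusted p = 0.104 and 0.261).

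Within RPM, LSL/LSL tumours (n = 9) were set against LSL/+ tumours (n = 2) over 15485 genes. None of the 10 genes was called (limma, Benjamini-Hochberg adjusted p of 0.291 to 0.834), where 0.0258% of all genes were, 4 of them lower and none higher. At an unadjusted p under 0.05 (limma) 1 of the 10, Oat, and 16.8% of all genes passed. Oat had 10.52 FPKM in the lowest LSL/LSL tumour, a median of 20.3 and 62.0 in the highest, against 7.99 and 12.6 FPKM in LSL/+, a difference of 1.09 ± 0.49 log2 units (SE; limma, adjusted p = 0.291). Slc7a2 differed by 1.06 ± 0.53 (limma, adjusted p = 0.318), with 3.52 to 15.8 FPKM in LSL/LSL against 1.59 and 7.97 FPKM in LSL/+. In no gene of the 10 were the groups free of overlap, beside 6.62% of all genes higher and 2.67% lower without overlap. Of the 10 genes, 8 had a difference above 0. Their median was 0.33, beside 0.16 for all genes tested, and the median of all genes moved to -0.01 after median-of-ratios scaling and to 0.38 after TPM scaling. With 2 LSL/+ tumours the intervals were wide, for example -0.09 to 2.21 for Slc7a2.

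By the ratio of highest to lowest FPKM, Arg1, Arg2, Slc7a2 and Oat ranged most widely of the 10 genes over the 11 RPM tumours. RPM replicate 5 had the highest Oat (62.0 FPKM), Ass1 (5.49 FPKM) and Slc7a2 (15.8 FPKM), and the lowest Arg2 (2.99 FPKM) and Pycr1 (9.05 FPKM). It was also the RPM tumour with the lowest sum of neuroendocrine markers (231 FPKM) and the highest sum of club cell markers (1632 FPKM), whose part in these levels was not tested. Across the 11 tumours Oat and Slc7a2 varied together (Pearson r = 0.84, permutation p = 0.00146, adjusted over 45 pairs 0.0652; Spearman rho = 0.88, permutation p = 0.00074, adjusted 0.0304). Without the 2 tumours with Slc7a2 farthest from its median (RPM replicates 2 and 6), r was 0.89. Arg2 varied against Oat (r = -0.81, permutation p = 0.0029, adjusted 0.0652; rho = -0.85, permutation p = 0.00184, adjusted 0.0304) and against Slc7a2 (r = -0.70, permutation p = 0.0164, adjusted 0.148; rho = -0.85, permutation p = 0.00203, adjusted 0.0304). Without RPM replicates 5 and 9, whose Arg2 was farthest from its median, those r were -0.64 and -0.75. These 3 of the 45 pairs, which were examined after the values had been seen, passed by rank and none by Pearson's r, and all levels share the depth of their library. RPM replicates 6 and 7, and 10 and 11, share a number in their titles and may not be independent. With such tumours averaged (9 values) r was 0.87, -0.84 and -0.71 for the 3 pairs in the order given.

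Myc was at 48.4 to 384 FPKM in RPM, with RPM replicate 2, an LSL/+ tumour, lowest. Of 10 relations between Myc and the described genes across RPM, 2 passed by Pearson's r and none by Spearman's rho. Slc7a2 had r = 0.84 (permutation p = 0.00153, adjusted 0.0153; rho = 0.77, permutation p = 0.00706, adjusted 0.0706) and Aldh18a1 had r = 0.74 (permutation p = 0.00925, adjusted 0.0462; rho = 0.63, permutation p = 0.0459, adjusted 0.153). Without RPM replicates 2 and 3, which had the Myc values farthest from the median, r was 0.61 and 0.39 and neither passed (exact permutation p = 0.0809 and 0.3), so neither passed on the 9 tumours that were left. With tumours of the same title number averaged, Slc7a2 passed (r = 0.89, permutation p = 0.00375, adjusted 0.0375) and Aldh18a1 did not (r = 0.74, permutation p = 0.0176, adjusted 0.0588). After median-of-ratios scaling Slc7a2 passed (r = 0.82, permutation p = 0.00178, adjusted 0.0178) and Aldh18a1 did not (r = 0.54, permutation p = 0.0847, adjusted 0.212). Pycr1, the other called enzyme of proline synthesis, had r = 0.18 with Myc (permutation p = 0.565, adjusted 0.706), Ass1 had r = 0.49 (permutation p = 0.122, adjusted 0.244) and Arg1 r = 0.08 (permutation p = 0.804, adjusted 0.804).

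**Figure D5:**
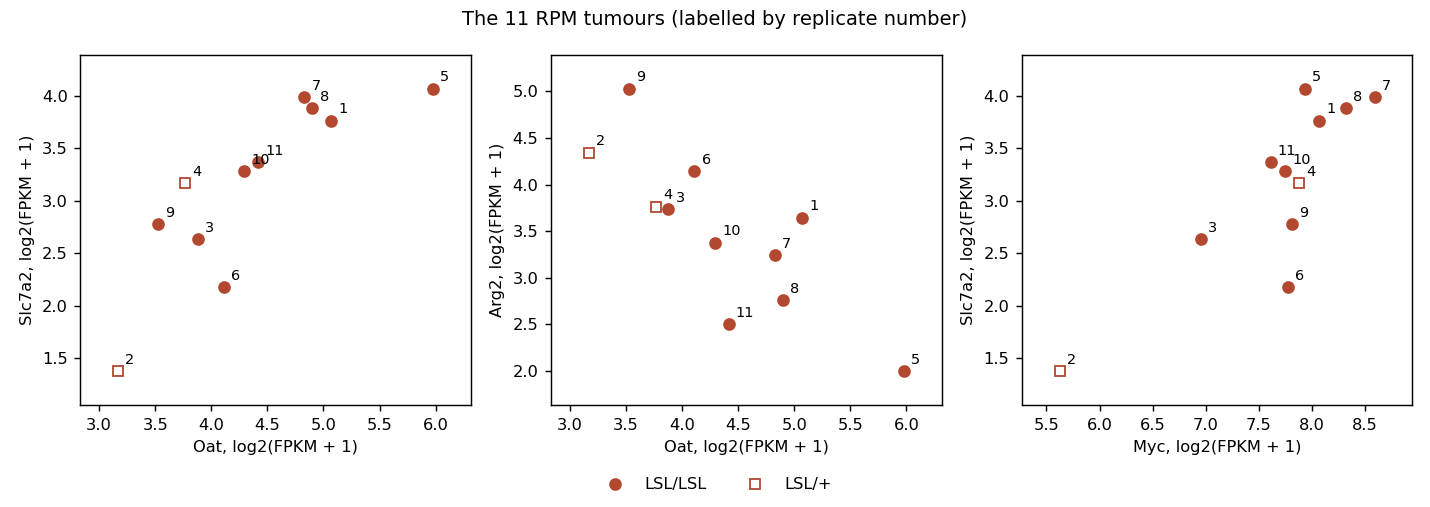
Levels in the 11 RPM tumours as log2(FPKM + 1), each point labelled with its replicate number, with open squares for LSL/+ tumours. Slc7a2 is plotted against Oat, Arg2 against Oat, and Slc7a2 against Myc, where RPM replicates 2 and 3 lie apart at low Myc.

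Among 13228 named protein-coding genes, those whose levels over the 11 RPM tumours were most like each gene's were listed as a description, by Pearson's r. They were Lipa (r = 0.971) and Ptk2b (0.960) for Ass1, Igsf6 (0.888) and Srgn (0.864) for Arg1, and Slc43a1 (0.967) and Fkbp9 (0.959) for Oat. For Slc7a2 they were Polr1b (0.966) and Tarbp1 (0.961), and for Slc7a1 Dsn1 (0.942) and Fyttd1 (0.938). Aldh18a1 was most like Zdhhc8 (0.938) and Snph (0.920), and Pycr1 most like Unc13a (0.946) and Slc25a12 (0.933). Asl was most like Epop (0.948) and C1ql1 (0.933), Arg2 most like Cryba2 (0.856) and Tubb4b (0.850), and Gatm most like Xk (0.959) and Sgcd (0.943). None of the 10 genes was among the 2 most like any other, which says little about the 10 when 13228 genes are compared. Each r listed is among the highest of that many over 11 tumours, and none was tested.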

How the data were processed

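RNA-seq of 14 tumours was deposited as 1 table of FPKM per gene and library, made by the authors. RSEM 1.2.12 and Bowtie 1.0.1 are listed with mm10, per the submitters' processing notes. Per the labels' protocols, libraries were stranded and poly(A)-selected. The sources used here give neither the authors' annotation release nor the strand setting. Groups came from the genotype labels and Myc allele copies from the source names. The labels do not say that the tumours came from separate mice. The main fits treat every tumour as independent, so p-values refer to these samples and may be too small if some tumours shared a mouse.

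Values were analysed as log2(FPKM + 1), which understates the change of low genes, with limma 3.58.1 in R 4.3.3 (empirical Bayes with a trend) over genes with at least 1 FPKM in at least 3 libraries (2 within RPM). The fit was also run on simulated independent values with equal spread in both groups. Those values do not mimic a library that stands apart, so that run does not bear on RPR2 replicate 3. The table holds no counts. Depth was estimated from the steps of low values in short genes with 1 annotated transcript, at a best read length of 45 to 52 bases. Gene coordinates are from GENCODE M21. Copies were sought with BLAST 2.17.0 (at least 90% identity over 250 bases). Relations were tested two-sided with 100000 permutations, or exactly for 9 values.

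The genes and lists were chosen with earlier results of these data known. The rule for names takes the 10 genes, up to 5 called genes per direction and list (all where 5 or fewer), and the 2 genes most like each. Others named (Got2, Slc7a6, Slc3a2, Prodh, Otc, Cps1, Slc7a3, Pepd, Castor2, Ddah1, Trib3, Ddit3 and cell type markers) were chosen after their values were seen. Prmt1 of the wider list is not analysed here, and the values of 1 gene counted in that list are not reported here. Alternatives are listed in the closing section.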

Additional observations from a re-analysis of the deposited data

How the results depend on the processing

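With 3 RPR2 libraries, 1 of which stood apart, precision between the models is limited. In 24 alternatives for RPM against RPR2 (pseudocounts of 0.1 and 0.01, no filter, a mean FPKM of at least 5, 3 scalings, array weights, title number as a random effect, LSL/LSL tumours only, and each library left out), Aldh18a1, Pycr1 and Arg1 stayed called. Ass1 stayed called in the 23 that tested it. Slc7a1 was lost only without RPR2 replicate 3. Array weights, which called 69.1% of all genes against 41.2%, gave 6 of the 10 genes higher, adding Asl (1.16), Slc7a2 (0.76) and Gatm (0.74), added Oat (-0.80) to those lower, and turned Arg2 to 0.78. The filter at a mean of 5 left 1 of the 10 lower, since Ass1 was no longer tested, and 3 of the wider list. Array weights gave 8 lower in the wider list and 8 higher Atf4 targets, beside 41.8% of all genes lower and 27.3% higher in that setting. The alternatives for the Atf4 targets and for pairs of genes were chosen after seeing the data. Leaving out single libraries gave 2 to 4 lower Atf4 targets and turned Asl (-0.03 to 1.16) and Arg2 (-1.28 to 0.97). Such omissions gave 3 higher and 2 lower of the 10 genes each time. For LSL/LSL against LSL/+, where no alternative called any of the 10 genes, leaving out single tumours turned Slc7a1 (-0.47 to 1.09), Gatm (-0.08 to 0.38) and Aldh18a1 (-0.33 to 0.65), lowest without RPM replicate 2, and Pycr1 (-0.79 to 0.11), highest without RPM replicate 4. Either omission leaves a lone LSL/+ tumour assumed to vary like the rest. Median-of-ratios scaling gave -0.04 for Gatm and -0.04 for Aldh18a1, and quantile normalization -0.01 for Gatm. Against 2 relations with Myc past the threshold, there was 1 (Slc7a2) with title-number means, 1 (Slc7a2) with median-of-ratios scaling and 0 without RPM replicates 2 and 3. In that last case r turned for Ass1 (-0.04), Slc7a1 (-0.21), Gatm (-0.19) and Pycr1 (-0.08). Median-of-ratios scaling turned Asl (-0.01), Arg1 (-0.002) and Pycr1 (-0.02), and title-number means Arg1 (-0.05). Except where the alternative itself tests fewer genes or libraries, the cause was not tested. No paired analysis was possible because the labels give no replicate numbers shared between the models.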
